A study of Homo sapiens with 14 samples.

Results

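The let-7 and miR-98 family is a group of human miRNAs that carry the let-7 seed, and its 9 members processed from the 5′ arm of their hairpins were taken by name from the deposited count table. These members, hsa-let-7a-5p, hsa-let-7b-5p, hsa-let-7c-5p, hsa-let-7d-5p, hsa-let-7e-5p, hsa-let-7f-5p, hsa-let-7g-5p, hsa-let-7i-5p and hsa-miR-98-5p (the prefix hsa, for human, is dropped below), were 9 of 2848 entries, of which 2346 had a human miRNA name. Small RNA had been sequenced from PANC-1, a single established line of human pancreatic ductal carcinoma cells cultured in medium with serum. Cells were exposed to grape proanthocyanidins (PA, polyphenols built of flavan-3-ol units) at 20 µg/ml for 3, 12 or 24 h, or to the vehicle DMSO for 0, 3, 12 or 24 h. Each of these 7 groups had 2 libraries, lettered A and B, 14 in all, and there was no PA library at 0 h. The design text of the series mentions a biological replicate, yet no label states that A and B were separate cultures, so the p-values below measure the spread between these libraries, which may be technical. The question put to the family was whether PA changed its members, and at which time.

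let-7 was first described as a developmental timing gene in the nematode Caenorhabditis elegans. In human cells its products are known as repressors of growth-promoting messages such as those of the RAS genes, HMGA2 and MYC, and are often low in carcinomas. The RNA-binding proteins LIN28A and LIN28B block the processing of most let-7 precursors, and LIN28B mRNA is itself a let-7 target. Each hairpin yields a guide strand, here the 5p arm, which is loaded into an Argonaute protein, and a passenger strand, which is mostly degraded. Members share targets through the seed, bases 2 to 8, and differ only in the remaining bases.

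The mature sequences of all 9 members were matched by name in RefSeq (GRCh38.p14) and are shown because their near identity sets how far reads can be assigned to one member. They are written 5′ to 3′ with the seed in capitals.
let-7a-5p: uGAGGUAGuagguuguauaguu
let-7b-5p: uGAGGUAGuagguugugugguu
let-7c-5p: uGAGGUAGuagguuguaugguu
let-7d-5p: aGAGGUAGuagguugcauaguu
let-7e-5p: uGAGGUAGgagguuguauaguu
let-7f-5p: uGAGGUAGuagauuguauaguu
let-7g-5p: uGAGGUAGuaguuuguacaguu
let-7i-5p: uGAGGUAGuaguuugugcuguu
miR-98-5p: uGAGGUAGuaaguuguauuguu

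All 9 sequences had 22 bases and the same seed. Counted from the 5′ end, let-7c-5p differed from let-7a-5p by 1 base (A19G), as did let-7e-5p (U9G) and let-7f-5p (G12A). let-7b-5p (A17G and A19G), let-7d-5p (U1A and U16C), let-7g-5p (G12U and U18C) and miR-98-5p (G11A and A19U) differed from it by 2 bases, and let-7i-5p by 4 (G12U, A17G, U18C and A19U). The number of mismatches allowed, and the rule for reads that map equally well to several members, are not given in the sources used here. A value for a member with few reads beside an abundant near-copy, above all let-7c-5p beside let-7a-5p, is therefore uncertain.

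The 9 mature sequences come from 12 hairpins, placed on GRCh38 with GENCODE v29 genes. MIRLET7A1 (chromosome 9, 94175957 to 94176036), MIRLET7F1 and MIRLET7D lie in that order on the plus strand in introns of the lincRNA AL158152.2, with 310 and 2400 bases between neighbours. MIRLET7A2 (chromosome 11, 122146522 to 122146593, minus strand) lies in an intron of MIR100HG. MIRLET7C (chromosome 21, 16539828 to 16539911, plus strand) lies in an intron of MIR99AHG, and MIRLET7E (chromosome 19, 51692786 to 51692864, plus strand) in an intron of SPACA6. MIRLET7A3 and MIRLET7B (chromosome 22, 46113686 to 46113768, plus strand) both overlap an exon of at least 1 transcript of MIRLET7BHG. MIRLET7G (chromosome 3, 52268278 to 52268361, minus strand) is intronic in WDR82. MIR98 and MIRLET7F2 (chromosome X, 53557192 to 53557274, minus strand) lie 850 bases apart in an intron of HUWE1. MIRLET7I (chromosome 12, 62603686 to 62603769, plus strand) stands alone, in an intron of the lincRNA AC048341.1 and opposite an exon of LINC01465. let-7a-5p and let-7f-5p can come from 3 and 2 hairpins, which their mature reads do not tell apart.

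Total counts ran from 1032391 (DMSO 12 h B) to 3111014 (PA 3 h B) per library. A level is given as CPM, the count relative to the TMM-scaled library total. PA was compared with DMSO by edgeR's quasi-likelihood F test over 810 entries, and an entry passed when its Benjamini-Hochberg adjusted p was under 0.05. Log2 fold changes carry the SE of that fit. The cell type markers fixed for these libraries were low: the 3 acinar and islet miRNAs summed to 1.64 to 10.0 CPM, the 4 haematopoietic ones to 1.64 to 6.37 CPM and the 5 epithelial ones of the miR-200 family to 50.0 to 85.8 CPM. The 3 red blood cell miRNAs summed to 297 to 591 CPM and the 4 fibroblast and endothelial ones to 395 to 843 CPM. Of the muscle, liver and neuron list, 4 of 5 were measured, at 0 to 8.67 CPM in sum. The fifth, miR-1-3p, was either not among the entries or had no reads. The line's identity as a pancreatic ductal carcinoma line rests on the labels.

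Every member was detected in all 14 libraries. All have 22 bases, so length does not set their levels apart. How evenly the libraries captured each sequence was not measured, so the order below is one of reads. let-7i-5p was the most abundant member, with a lowest, median and highest library of 9051, 11775 and 16622 CPM, and ranked 16th among the named miRNAs by mean level. let-7f-5p followed at 7498 to 11762 CPM. let-7g-5p at 5384 to 8638 CPM and let-7a-5p at 5284 to 7209 CPM came next and could not be ordered, since let-7g-5p was the higher in 9 of 14 libraries. let-7b-5p lay at 1992 to 2719 CPM and exceeded miR-98-5p, at 1469 to 2309 CPM, in 12 of 14 libraries. let-7e-5p lay at 614 to 895 CPM and let-7d-5p at 293 to 463 CPM. Apart from these pairs, each member exceeded the next in the order in all 14 libraries.

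let-7c-5p was far below the rest, at 8.76 to 46.0 CPM from 11 to 60 reads per library, and ranked 376th. Its reads were 0.159% to 0.844% of those of let-7a-5p in the same library. It also varied most, with a coefficient of variation over the 14 libraries of 57.3%, against 8.45% (let-7b-5p) to 17.0% (let-7i-5p) for the other 8. In DMSO at 0 h alone it had 11.8 CPM in A and 46.0 CPM in B.

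**Figure D1:**
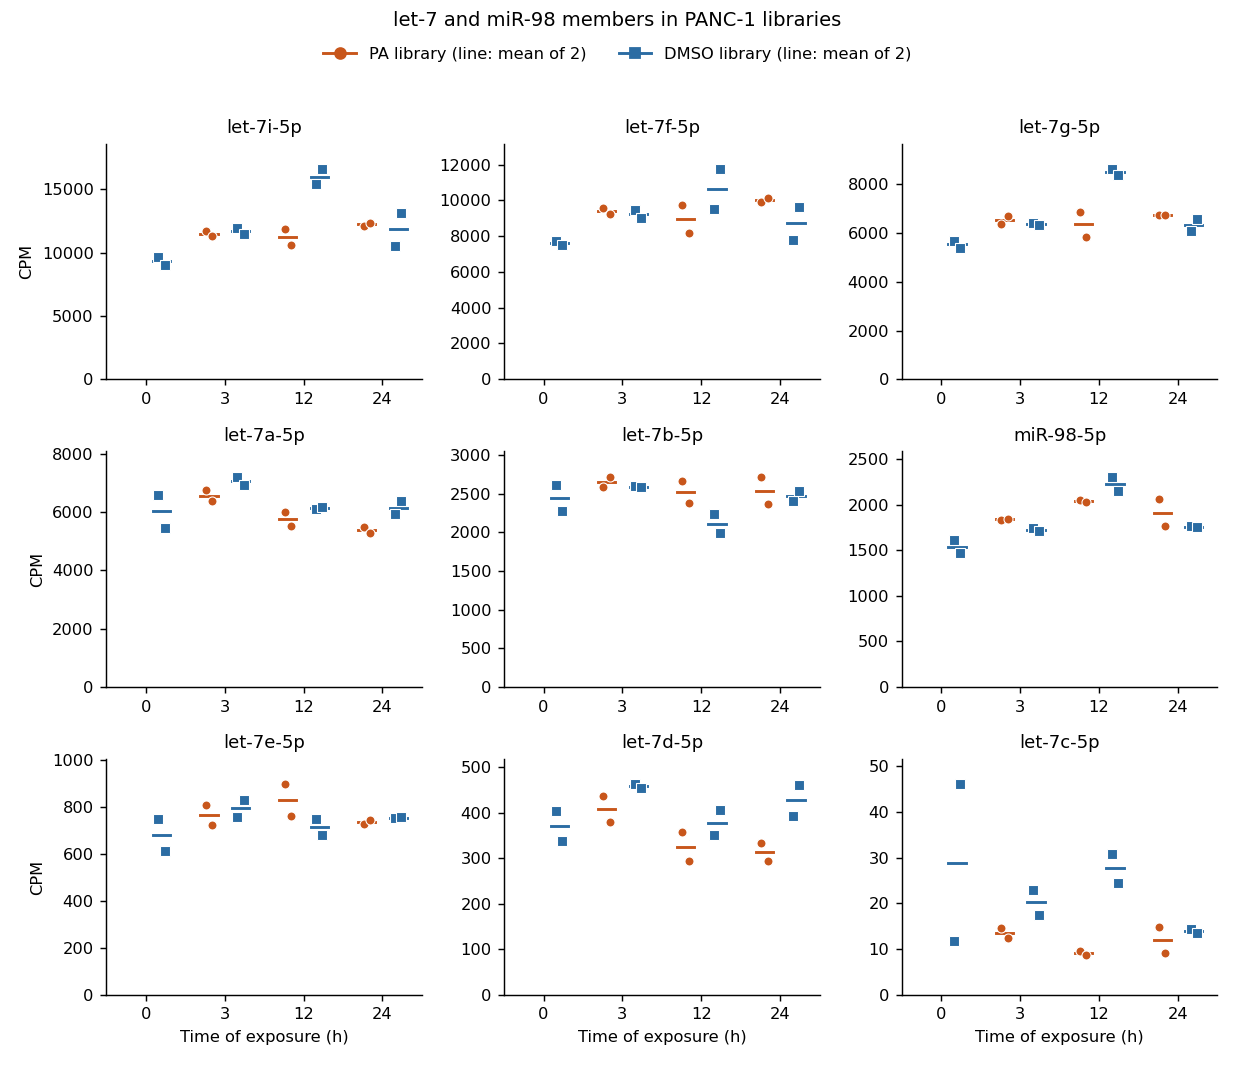
CPM (TMM scaled, axes from 0) of the 9 members by hours of exposure, 1 panel each in order of mean level, with PA libraries as circles, DMSO libraries as squares and a line at the mean of each pair. The DMSO 12 h libraries of let-7i-5p and let-7g-5p lie above every other library, and let-7c-5p is at 9.58 and 8.76 CPM in PA 12 h.

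Together the family took 3.46% to 5.14% of a library's counts. The shares were 3.97% and 3.73% in PA 3 h, 4.17% and 3.53% in PA 12 h, and 3.55% and 3.82% in PA 24 h (A and B). They were 3.65% and 3.46% in DMSO 0 h, 3.84% and 3.78% in DMSO 3 h, 4.66% and 5.14% in DMSO 12 h, and 3.78% and 4.27% in DMSO 24 h. Both DMSO 12 h libraries thus lay above the other 12, of which the highest had 4.27%, and PA overlapped with DMSO at 3 and at 24 h.

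Within the family, let-7i-5p made up 27.5% to 34.5% of the reads, let-7f-5p 21.0% to 25.6%, let-7g-5p 15.8% to 19.0% and let-7a-5p 12.8% to 18.8%. let-7b-5p took 4.13% to 7.46%, miR-98-5p 4.25% to 5.71%, let-7e-5p 1.41% to 2.21%, let-7d-5p 0.739% to 1.16% and let-7c-5p 0.0233% to 0.143%. The widest 95% Wilson interval of a share was 0.446 percentage points to either side, which covers counting error only and not copies made by PCR. let-7i-5p held 29.5% ± 0.4 of the family in PA 12 h, against 34.2% ± 0.4 in DMSO 12 h (SD, n = 2 each). let-7b-5p held 6.58% and 6.68% in PA 12 h, against 4.92% and 4.13% in DMSO 12 h, the lowest shares of any library. let-7e-5p also had its lowest shares in DMSO 12 h, at 1.645% and 1.409%. A larger share of let-7i-5p leaves less for the rest, so the shares are not independent of each other. The 4 members in which position 11 or 12 departs from the GG of let-7a-5p (let-7f-5p, let-7g-5p, let-7i-5p and miR-98-5p) together took 75.5% and 74.8% in PA 12 h, 79.1% and 80.8% in DMSO 12 h, and 70.4% to 78.1% over all other libraries; this grouping was made after their values were seen and was not tested.

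At 3 h no member passed between PA and DMSO. Of all entries 0.247% passed in this comparison, and of the 9 members 0 passed in edgeR, DESeq2 or limma. An unadjusted p under 0.05 was reached in edgeR by 0 members and by 1.73% of all entries. The median log2 fold change of the members was -0.02, against -0.01 for all entries. Values were 0.09 for miR-98-5p, 0.04 for let-7g-5p, 0.03 for let-7b-5p and let-7f-5p, -0.02 for let-7i-5p, -0.05 for let-7e-5p, -0.11 for let-7a-5p and -0.17 for let-7d-5p, each with an SE of 0.14 to 0.17. The low let-7c-5p had 14.6 and 12.5 CPM in PA, against 22.9 and 17.5 CPM in DMSO, and a log2 fold change of -0.59 ± 0.46 that did not pass.

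At 12 h 2 of the 9 members passed with a lower level in PA than in DMSO, let-7i-5p and let-7c-5p, and 0 with a higher one. Of all entries 11.1% passed at this time, 4.81% with a lower and 6.3% with a higher level in PA. The median of the members was -0.22, against -0.06 for all entries, and 7 of the 9 had a negative value. let-7i-5p had 11839 and 10606 CPM in the PA libraries A and B, against 15395 and 16622 CPM in the DMSO libraries. That DMSO pair lay above every other library of the series, as set out below. Both PA libraries lay below both DMSO libraries, with a log2 fold change of -0.51 ± 0.15 (edgeR adjusted p = 0.0373). let-7c-5p had 9.58 and 8.76 CPM in PA, from 19 and 22 reads, against 30.7 and 24.6 CPM in DMSO, from 54 and 27 reads. These also did not overlap, and the log2 fold change was -1.60 ± 0.49 (edgeR adjusted p = 0.0468).

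let-7g-5p had 6872 and 5846 CPM in PA 12 h, against 8638 and 8392 CPM in DMSO 12 h. Its libraries did not overlap either, but with a log2 fold change of -0.42 ± 0.14 it did not pass in edgeR (adjusted p = 0.0627). It passed in DESeq2 (adjusted p = 0.0262) and in limma on log2(TPM + 1) (0.0325), each of which called 3 members. let-7f-5p (-0.25 ± 0.16), let-7d-5p (-0.22 ± 0.18), miR-98-5p (-0.13 ± 0.15) and let-7a-5p (-0.10 ± 0.14) had negative values and let-7b-5p (0.25 ± 0.15) and let-7e-5p (0.21 ± 0.16) positive ones, and none of these passed. let-7b-5p had 2659 and 2379 CPM in PA, against 2233 and 1992 CPM in DMSO, and its libraries did not overlap. Nor did those of let-7a-5p, let-7e-5p and miR-98-5p at 12 h. At 3 h, where none passed, let-7a-5p, let-7c-5p, let-7d-5p and miR-98-5p did not overlap either. With 2 libraries a side, a lack of overlap says little by itself, and its share over all entries was not counted.

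The calls at 12 h lay close to the threshold. When each of the 14 libraries was left out in turn, let-7i-5p passed in 3 fits (without DMSO 12 h A, PA 24 h A or PA 24 h B) and had log2 fold changes of -0.56 to -0.38 over all 14. let-7c-5p passed in 4 (without DMSO 0 h A or B or PA 24 h A or B), at -1.73 to -1.41, and it did not pass with the letters A and B as a block (adjusted p = 0.0651).

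At 24 h no member passed between PA and DMSO in edgeR. Among all entries 6.67% passed, while 0 of the 9 members did in edgeR and 0 in DESeq2. An unadjusted p under 0.05 was reached in edgeR by 1 member and by 20.9% of all entries. The median of the members was 0.04, against -0.01 for all entries. let-7d-5p came closest, with 333 and 293 CPM in PA, against 394 and 461 CPM in DMSO. Its PA libraries lay below its DMSO libraries, and the log2 fold change was -0.45 ± 0.18 (edgeR adjusted p = 0.154). Scaling to total counts instead of TMM moved the median of all entries to -0.19, and let-7d-5p then passed (-0.63, adjusted p = 0.0359), as it did in limma on log2(TPM + 1) (adjusted p = 0.0392). let-7i-5p had 12131 and 12371 CPM in PA, against 10537 and 13156 CPM in DMSO, a log2 fold change of 0.05 ± 0.14. The rest ran from -0.19 for let-7a-5p through -0.15 for let-7c-5p, -0.04 for let-7e-5p, 0.04 for let-7b-5p, 0.09 for let-7g-5p and 0.12 for miR-98-5p to 0.20 for let-7f-5p. With total counts the signs of let-7b-5p, let-7g-5p, let-7i-5p and miR-98-5p turned negative, none of them passing.

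**Figure D2:**
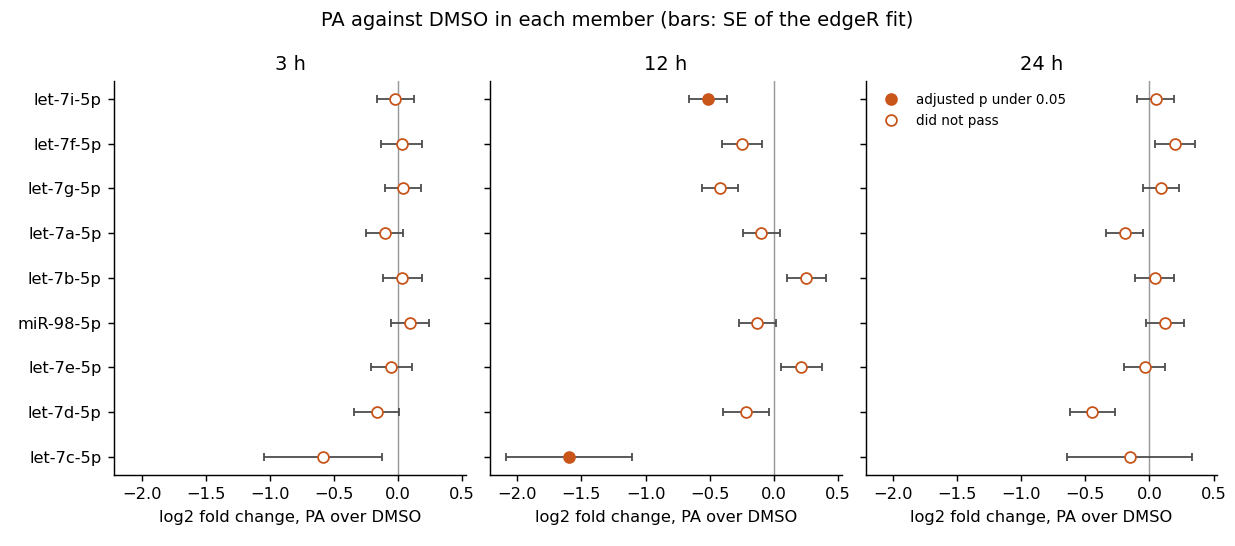
Log2 fold change of PA over DMSO for each member (rows, in order of mean level) at 3, 12 and 24 h, with the SE of the edgeR fit as bars and filled points for members that passed. Filled points appear at 12 h for let-7i-5p (-0.51) and let-7c-5p (-1.60), and the bar of let-7c-5p is the longest at each time.

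Averaged over 3, 12 and 24 h, with time as an additive term on 12 libraries, 0% of 808 entries passed in edgeR, members included, although 118 entries and 2 members had an unadjusted p under 0.05. Those members were let-7c-5p (-0.77 ± 0.25, adjusted p = 0.207) and let-7d-5p (-0.28 ± 0.12, adjusted p = 0.326), and DESeq2 and limma called 0 members. The other mean effects were 0.11 for let-7b-5p, 0.04 for let-7e-5p, 0.03 for miR-98-5p, -0.01 for let-7f-5p, -0.10 for let-7g-5p, -0.13 for let-7a-5p and -0.16 for let-7i-5p. A direct test for a PA effect that depends on time passed for 5.93% of entries and for 0 of 9 members in edgeR, DESeq2 and limma. An unadjusted p under 0.05 was reached in edgeR by 2 members and by 22.1% of all entries. The smallest adjusted p of a member in this edgeR test was 0.183, for let-7i-5p. Passing at 12 h and not at 3 or 24 h was thus not shown to be a difference between the times.

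For let-7i-5p the 12 h comparison was made against DMSO libraries that stood apart. Those of let-7c-5p, at 30.7 and 24.6 CPM, lay within the range of its DMSO 0 h libraries, at 11.8 and 46.0 CPM. let-7i-5p was at 9650 and 9051 CPM in DMSO 0 h, 11916 and 11463 CPM in DMSO 3 h, 15395 and 16622 CPM in DMSO 12 h, and 10537 and 13156 CPM in DMSO 24 h. The 12 h pair exceeded the 6 other DMSO libraries. Over the 4 DMSO times 13.1% of entries passed, and let-7i-5p (edgeR adjusted p = 0.0113) and let-7g-5p (0.0289) were the 2 members that did. It was at 11710 and 11285 CPM in PA 3 h, 11839 and 10606 CPM in PA 12 h, and 12131 and 12371 CPM in PA 24 h, pairs that lay close together. Over the 3 PA times 3.95% of entries passed in edgeR, and 0 of 9 members in edgeR, DESeq2 and limma. An unadjusted p under 0.05 was reached in edgeR by 0 members and by 15.3% of all entries.

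Set against the mean of DMSO at 0, 3 and 24 h, a contrast chosen because these libraries were known to differ, DMSO 12 h had 3 higher members and 0 lower ones. Of all entries 16.5% passed here, 8.89% with a higher level at 12 h, and the median was 0.33 for the members and 0.03 for all entries. let-7i-5p was higher by 0.55 ± 0.11 (log2, edgeR adjusted p = 0.00367). let-7g-5p had 8638 and 8392 CPM at 12 h, against 5384 to 6587 CPM in the other 6 DMSO libraries, and was higher by 0.49 ± 0.11 (adjusted p = 0.00661). miR-98-5p had 2309 and 2157 CPM, against 1469 to 1763 CPM, and was higher by 0.42 ± 0.12 (adjusted p = 0.0222). All 3 had 12 h libraries above the other 6, and the calls of let-7i-5p and let-7g-5p were kept in each of the 14 fits that left out 1 library, that of miR-98-5p in 3 of them. let-7f-5p (0.33 ± 0.13, adjusted p = 0.0907) and let-7c-5p (0.48 ± 0.37) did not pass, nor did let-7a-5p (-0.06), let-7e-5p (-0.06), let-7d-5p (-0.14) and let-7b-5p (-0.24).

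No member passed in PA at 12 h against the same 3 DMSO times. Of all entries 0.617% passed in that contrast and of the members 0 in edgeR, DESeq2 and limma. An unadjusted p under 0.05 was reached by 3 of the 9 members, let-7c-5p, let-7d-5p and miR-98-5p, and by 13.6% of all entries. let-7i-5p was at 0.04 ± 0.12, let-7g-5p at 0.07 ± 0.11 and let-7f-5p at 0.08 ± 0.13. miR-98-5p, at 2056 and 2032 CPM in PA 12 h, lay above all 6 of these DMSO libraries, but 0.29 ± 0.12 did not pass (adjusted p = 0.294). let-7c-5p kept the most negative value, at -1.12 ± 0.42 (adjusted p = 0.261), with both PA 12 h libraries below the lowest of the 6, at 11.8 CPM. let-7d-5p was at -0.36 ± 0.15 (adjusted p = 0.294), and its libraries overlapped. let-7e-5p (0.16), let-7b-5p (0.01) and let-7a-5p (-0.15) were closer to 0. Both contrasts share the DMSO libraries at 0, 3 and 24 h, and the second mixes PA with time in culture.

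Marker sums of the 12 h libraries were as follows. The red blood cell miRNAs, with all 3 markers detected, summed to 406 and 503 CPM in PA 12 h and 540 and 591 CPM in DMSO 12 h. The 4 fibroblast and endothelial miRNAs summed to 678 and 495 CPM in PA 12 h and 443 and 395 CPM in DMSO 12 h. PANC-1 is a single line, so these sums are read as levels of the miRNAs and not as counts of such cells. The part of these values, and of the low depth of DMSO 12 h B, in the result was not tested.

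**Figure D3:**
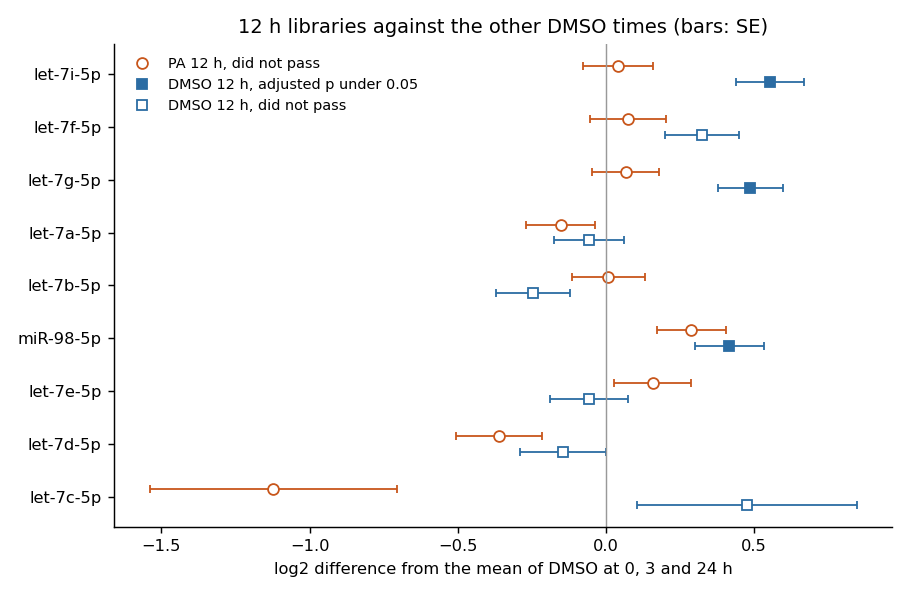
Log2 difference of PA 12 h (circles) and DMSO 12 h (squares) from the mean of DMSO at 0, 3 and 24 h for each member, with SE bars and filled symbols where the adjusted p was under 0.05. The filled squares are let-7i-5p (0.55), let-7g-5p (0.49) and miR-98-5p (0.42), and no circle is filled.

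Ratios between members within a library do not depend on scaling, and they showed how the family's make-up moved with time. let-7i-5p over let-7a-5p was 1.74 and 1.77 in PA 3 h, 1.98 and 1.92 in PA 12 h, and 2.22 and 2.34 in PA 24 h. It was 1.47 and 1.66 in DMSO 0 h, 1.65 and 1.66 in DMSO 3 h, 2.52 and 2.69 in DMSO 12 h, and 1.78 and 2.07 in DMSO 24 h. The 3 PA times did not overlap and ran upward, and PA lay above DMSO at 3 and 24 h but below it at 12 h. let-7g-5p over let-7a-5p had the same order, with 1.23 and 1.28 in PA at 24 h, against 1.03 and 1.03 in DMSO at 24 h, and 1.15 and 1.06 in PA at 12 h, against 1.41 and 1.36 in DMSO at 12 h. let-7f-5p over let-7a-5p was 1.81 and 1.92 in PA at 24 h, against 1.32 and 1.52 in DMSO at 24 h, while the 12 h pairs of 1.63 and 1.48 in PA and 1.56 and 1.90 in DMSO overlapped. All 3 ratios share let-7a-5p as the divisor, so they are not independent of each other. let-7a-5p had 5473 and 5284 CPM in PA at 24 h, against 5933 and 6368 CPM in DMSO at 24 h. These ratios were looked at after the members' values and were not tested.

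**Figure D4:**
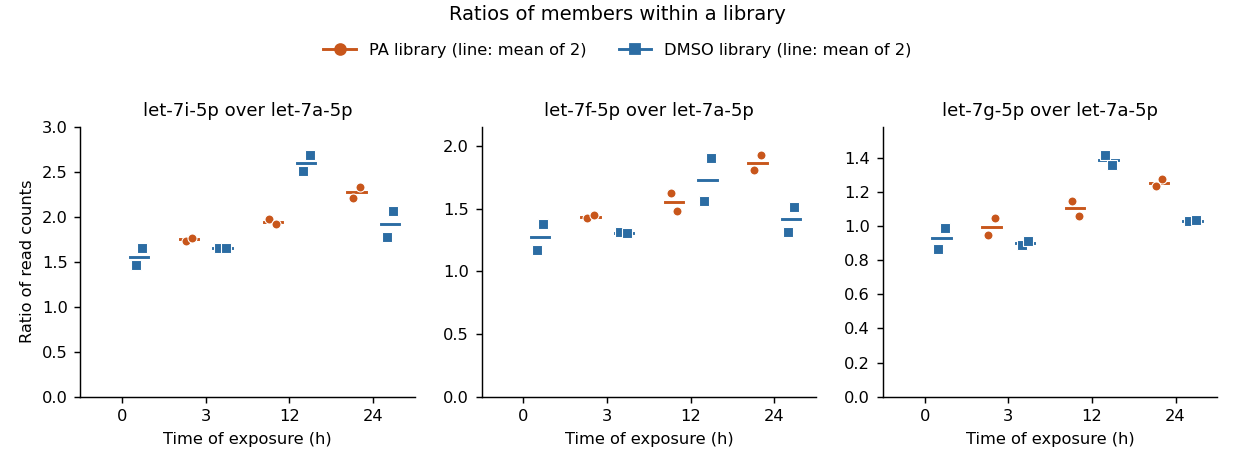
Ratio of the read counts of let-7i-5p, let-7f-5p and let-7g-5p to those of let-7a-5p in the same library (axes from 0), by hours of exposure, with PA as circles, DMSO as squares and lines at pair means. At 24 h both PA libraries lie above both DMSO libraries in all 3 panels, for let-7i-5p at 2.22 and 2.34 against 1.78 and 2.07.

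The passenger arms were followed beside their guides. The let-7i hairpin (RefSeq, GRCh38.p14, chr12:62603686-62603769, plus strand) is shown because in DMSO 12 h its 5p arm was higher and its 3p arm lower than at the other DMSO times, with the 5p and 3p mature sequences in capitals.
MIRLET7I hairpin: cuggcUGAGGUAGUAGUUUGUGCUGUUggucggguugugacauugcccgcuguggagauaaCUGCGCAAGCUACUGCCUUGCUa

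Of 11 passenger arms 10 were abundant enough to be tested; let-7c-3p, with 0 to 16 reads a library, was not. In DMSO at 12 h against the other DMSO times, where 7.65% of entries were lower, 2 of the 10 were lower and 0 higher. let-7i-3p had 288 and 235 CPM in DMSO 12 h, against 359 to 490 CPM in the other 6 DMSO libraries, a log2 difference of -0.62 ± 0.14 (edgeR adjusted p = 0.00671). let-7f-2-3p had 65.4 and 63.7 CPM, against 85.5 to 113 CPM, a difference of -0.61 ± 0.18 (adjusted p = 0.0336). The call of let-7f-2-3p held in 3 of 8 alternative fits and in 5 of the 14 with a library left out, and was lost in DESeq2 (0.0795), while that of let-7i-3p was lost only without DMSO 12 h B (0.0936) among all of these. Neither arm overlapped with the other DMSO times, and their guides had positive values, of 0.55 for let-7i-5p and 0.33 for let-7f-5p, in the same contrast.

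With PA, 0 of the 10 passenger arms passed against DMSO at 3, 12 or 24 h in edgeR and DESeq2. At 12 h 2 of the 10 had an unadjusted p under 0.05, against 213 of all 810 entries, and the median was 0.04. At 24 h 5 of the 10 did, against 169 of 810, 8 were negative and the median was -0.50, against -0.01 for all entries. let-7f-2-3p had 78.2 and 56.3 CPM in PA at 24 h, against 113 and 108 CPM in DMSO at 24 h. Its libraries did not overlap, and -0.70 ± 0.21 missed the threshold (adjusted p = 0.0599). With total counts and with limma, let-7a-2-3p, let-7f-2-3p and let-7i-3p passed at 24 h. The PA effect at 24 h minus that at 12 h passed for 8.64% of entries, 3.58% with a lower effect at 24 h. Of the passenger arms 2 of 10 passed, both lower, let-7f-2-3p at -1.26 ± 0.30 (edgeR adjusted p = 0.0168) and let-7i-3p at -0.79 ± 0.23 (0.0458). With a library left out, let-7f-2-3p passed in 10 of 14 fits, not without DMSO 24 h A or B, PA 12 h A or PA 24 h B, and let-7i-3p in 2 of 14. With only the libraries compared neither passed (0.0832 and 0.145), and let-7i-3p passed in 3 of 8 alternative fits.

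From 3 to 24 h within PA, 3.95% of entries passed, 1.23% with a lower level at 24 h, and 2 of the 10 passenger arms, both lower at 24 h. let-7a-2-3p had 58.5 and 38.7 CPM at 24 h, against 96.9 and 108 CPM at 3 h (-1.05 ± 0.25, adjusted p = 0.0277). let-7i-3p had 289 and 265 CPM at 24 h, against 434 and 421 CPM at 3 h (-0.62 ± 0.16, adjusted p = 0.0433). With only the libraries compared 0 of the 10 passed (0.0627 for let-7a-2-3p and 0.115 for let-7i-3p), and let-7i-3p was also lost with no filter (0.0864). With a library left out let-7a-2-3p passed in 10 of 14 fits, not without PA 3 h A or B, PA 24 h B or DMSO 24 h B (up to 0.202), and let-7i-3p in 2 of 14. No guide passed in that comparison, where the log2 values were -0.38 for let-7d-5p, -0.29 for let-7a-5p, -0.12 for let-7c-5p, -0.06 for let-7b-5p and let-7e-5p, 0.05 for let-7g-5p and miR-98-5p, and 0.09 for let-7f-5p and let-7i-5p.

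The count of the 5p arm over that of the 3p arm put this on a scale that does not depend on library size. For let-7i it was 33.0 and 31.5 in PA 12 h and 53.5 and 70.8 in DMSO 12 h, above all 12 other libraries, which ran from 19.7 to 46.7. It was 42.0 and 46.7 in PA at 24 h, against 28.9 and 36.7 in DMSO at 24 h, and 27.0 and 26.8 in PA at 3 h, against 28.7 and 30.9 in DMSO at 3 h. PA was thus lower than DMSO at 12 h and higher at 24 h without overlap. The ratio of let-7f, over the sum of its 2 passenger arms, was 76.1 and 74.0 in PA 12 h and 116 and 145 in DMSO 12 h, and 93.8 and 139 in PA at 24 h, against 60.6 and 73.7 in DMSO at 24 h. That of let-7a, likewise over 2 arms, was 42.0 and 49.5 in PA at 24 h, against 32.8 and 35.8 in DMSO at 24 h, and overlapped at 12 h. For miR-98 it was 127 and 76.2 in PA 12 h and 131 and 132 in DMSO 12 h, from 14 to 70 passenger reads per library. At 24 h PA also lay above DMSO without overlap for miR-98 (87.17 and 149.7, against 79.61 and 73.53). The same held for let-7b (75.24 and 61.15, against 42.92 and 51.75) and let-7e (44.17 and 42.05, against 41.61 and 24.59). let-7d and let-7g overlapped at 24 h. The nearest let-7e libraries were close, at 42.05 in PA and 41.61 in DMSO, from 21 and 44 passenger reads. These arm ratios were not tested, and how often other hairpins separate in this way was not counted. With 2 libraries a side, a lack of overlap says little by itself.

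Hairpins differed widely in how much passenger was read. let-7d gave only 3.44 to 5.37 guide reads per passenger read, the lowest of the 8 hairpins or hairpin groups compared. let-7g gave 762 to 4614, from 2 to 22 passenger reads. Ratios of let-7b, let-7d, let-7e and let-7g in DMSO 12 h overlapped those of the other DMSO libraries.

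**Figure D5:**
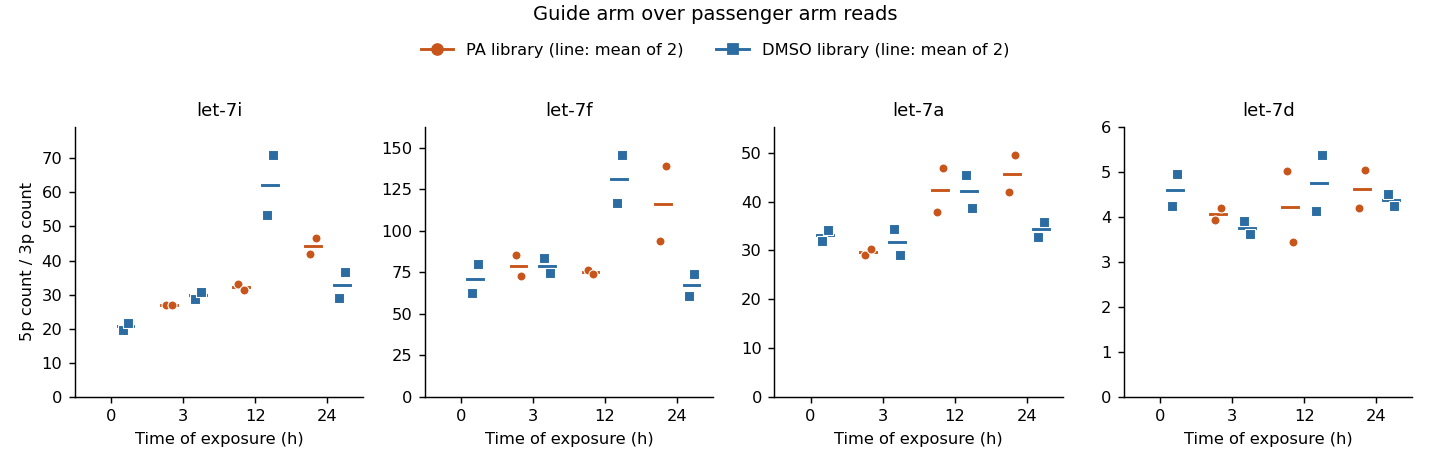
Read count of the 5p arm over that of the 3p arm (axes from 0; passenger arms of several hairpins summed for let-7f and let-7a) by hours of exposure, with PA as circles, DMSO as squares and lines at pair means. The DMSO 12 h libraries of let-7i (53.5 and 70.8) lie above all others, and let-7d stays between 3.44 and 5.37. PA lies above DMSO at 24 h for let-7i, let-7f and let-7a, and also for let-7b, let-7e and miR-98, which are not drawn. For let-7d and let-7g they overlap at 24 h, and the ratios were not tested.

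miRNAs of the transcripts that hold let-7 hairpins were followed as a list of 6, of which 5 were tested. In PA against DMSO 1 of 5 passed at 12 h, lower, where 4.81% of entries were lower, and 3 of 5 at 24 h, higher, where 4.32% were higher. miR-99a-5p, which shares MIR99AHG with let-7c, had 179 and 226 CPM in PA 12 h, against 949 and 432 CPM in DMSO 12 h. Its libraries did not overlap, and it was lower in PA by 1.77 ± 0.27 (log2, edgeR adjusted p = 0.00069). let-7c-5p was also lower, from far fewer reads, but the 2 differed against the other DMSO times. The PA 12 h libraries of miR-99a-5p lay near those of DMSO 0 h (178 and 210 CPM) and DMSO 3 h (184 and 203 CPM). Those of let-7c-5p lay below all DMSO libraries. At 24 h miR-99a-5p had 281 and 288 CPM in PA, against 154 and 138 CPM in DMSO, and rose by 0.96 ± 0.27 (adjusted p = 0.044), while let-7c-5p had 14.8 and 9.25 CPM in PA, against 14.4 and 13.4 CPM in DMSO. miR-100-5p, from MIR100HG with let-7a-2, and miR-99b-5p, clustered with let-7e, rose at 24 h by 0.56 ± 0.15 (adjusted p = 0.0321) and 0.60 ± 0.16 (0.035). let-7a-5p and let-7e-5p had values of -0.19 and -0.04 at that time and did not pass. In DESeq2 3 of the 5 also passed at 24 h. The 24 h call of miR-99b-5p was lost in edgeR with no filter (adjusted p = 0.0584) and with only the libraries compared (0.0605). The 24 h calls of miR-99a-5p, miR-100-5p and miR-99b-5p were lost with total counts (adjusted p = 0.0947, 0.0947 and 0.111) and in limma on log2(TPM + 1) (0.0961, 0.0766 and 0.102). With a library left out they held in 10, 8 and 5 of 14 fits, and without DMSO 24 h A all 3 were lost (0.139, 0.197 and 0.225), as they were without DMSO 24 h B or PA 24 h A.

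In DMSO at 12 h against the other DMSO times, 4 of the 5 were higher, as were 8.89% of all entries. miR-99a-5p led at 1.97 ± 0.20 (adjusted p = 1.253e-05), and miR-99b-5p was at 0.50 ± 0.13 (0.0128), a call held in 10 of 14 fits with a library left out. miR-100-5p, at 0.37 ± 0.12 (adjusted p = 0.0463), passed in 3 of those 14 and was lost with no filter (0.211). miR-125a-5p, clustered with let-7e, was at 0.69 ± 0.22 (adjusted p = 0.0411) on the strength of 1 library, with 4018 CPM in A and 9683 CPM in B. Without DMSO 12 h B its value was -0.07. The call of miR-125a-5p was also lost in edgeR with only the libraries compared (adjusted p = 0.0654) and with the replicate block (0.0595), and in limma on log2(TPM + 1) (0.0901).

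Other carriers of the seed added little. Among the 2370 human mature miRNAs listed by RefSeq, 11 had the let-7 bases at positions 2 to 8, the 9 members with miR-4458 and miR-4500, whose reads over all 14 libraries came to 117 and 108. miR-202-3p, often listed with the family, had 2 reads in all.

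Some members tracked each other across libraries. Over the 14 libraries, which share their depth and scaling, the entries most like let-7i-5p by Pearson r of log2 CPM were let-7g-5p (0.95), miR-940 (0.90) and miR-941 (0.89). Without the 2 DMSO 12 h libraries these were 0.90, 0.83 and 0.71. let-7f-5p had an r of 0.87 with let-7i-5p and 0.80 with let-7g-5p, and miR-98-5p one of 0.81 with let-7g-5p. With the DMSO 12 h libraries left out, these were 0.92, 0.92 and 0.64. let-7a-5p and let-7d-5p, of the same cluster, reached 0.90, but let-7a-5p and let-7f-5p, also clustered there, 0.10. let-7f-5p and miR-98-5p, neighbours in HUWE1, reached 0.61. These clustered pairs were at 0.91, 0.10 and 0.54, in the same order, with the DMSO 12 h libraries left out. The entries most like let-7c-5p were the unnamed chr9_20919 (0.82), miR-5684 (0.79) and miR-196b-5p (0.77), each a correlation of an entry with few let-7c-5p reads behind it.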

How the data were processed

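Small RNA libraries of PANC-1 cells were analysed from 2 tables that the authors deposited: read counts per mature miRNA, and TPM values. The submitters' processing notes name GRCh38 as the build and Bowtie, bcl2fastq and edgeR as tools; versions, mismatches and multi-mapping rules are not given in the sources used here. The deposited TPM equalled the count over the library total on the TPM scale within 0.0145%, with no length correction. All 28 value columns matched a library by title; 502 unnamed entries stayed in totals and tests. Groups came from the labels.

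From the counts, edgeR 4.0.16 (R 4.3.3) was fitted with TMM scaling, filterByExpr (minimum count 10, minimum total 15) and robust quasi-likelihood F tests, as 1 fit of 7 groups and 14 libraries. The mean PA effect used time as an additive term on 12 libraries. Benjamini-Hochberg adjustment ran over all entries tested. The common biological coefficient of variation was 0.203. DESeq2 1.42.0, limma 3.58.1 on log2(TPM + 1), other scalings, no filter, only the libraries compared, a replicate block, named miRNAs only and leaving out each library were tried. Scripts were tested on simulated data. CPM and log2 CPM (prior count 2) are TMM scaled. A and B of every group differed beyond sampling noise (chi-square divided by its degrees of freedom, 13.0 to 78.0).

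All 9 members were named in PA against DMSO at each time, in the mean effect, in PA 12 h against the other DMSO times and in PA 24 h against PA 3 h. Passenger arms, other seed carriers and miRNAs of the same transcripts were named where they passed a PA comparison or paired with a member that passed, and the 3 entries of highest Pearson r were named for the passing and the most abundant members. Exceptions, chosen after their values were seen, are let-7d-3p and let-7g-3p by their ratios, miR-125a-5p, let-7f-2-3p, let-7a-2-3p and the other seed carriers. Members and lists were chosen with earlier results of these data known.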

Additional observations from a re-analysis of the deposited data

Results flagged for a closer look

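The passenger arm let-7f-2-3p and miR-99a-5p gave a PA effect that differed between the times, by the direct test over 3, 12 and 24 h. For let-7f-2-3p the edgeR adjusted p was 0.048. Its log2 fold change of PA over DMSO was 0.11 ± 0.21 at 3 h, 0.56 ± 0.22 at 12 h and -0.70 ± 0.21 at 24 h, none passing alone, and the effect at 24 h minus that at 12 h was -1.26 ± 0.30 (adjusted p = 0.0168). For miR-99a-5p, from the transcript of let-7c, the adjusted p was 0.00305, with -0.04 ± 0.27 at 3 h, -1.77 ± 0.27 at 12 h and 0.96 ± 0.27 at 24 h. Both also had DMSO 12 h libraries outside the range of the other DMSO times, whose part in these differences was not tested.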

How the results depend on the processing

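At 12 h, 2 members passed; 1 did with no filter, with only the libraries compared, with the replicate block and with that block after the PA 12 h letters were swapped (added after seeing the data), and 0 to 2 when 1 library was left out. let-7i-5p was lost with no filter (adjusted p = 0.345) and with only the libraries compared (0.204). Other settings raised the count at 12 h to 3, with let-7g-5p added. These were DESeq2 size factors in edgeR, total counts, DESeq2 and limma on log2(TPM + 1). At 24 h 0 members passed, and 1 did with total counts and with limma on log2(TPM + 1). Total counts, DESeq2 and limma each gave 3 members over the DMSO times. Over the DMSO times 2 passed, 1 with no filter and 0 to 2 with a library left out; in DMSO 12 h against the other DMSO times 3 passed, 1 with no filter and 2 to 3. The one called value that changed sign was miR-125a-5p in that contrast (-0.0743 without DMSO 12 h B; over all fits with a library left out, -0.0743 to 1.2082). Of all entries, 2 passed at 3 h, and 1 with only the libraries compared or named miRNAs only (1 to 2 with a library left out). At 12 h 90 passed, 33 with only the libraries compared, and 34 to 107 with a library left out. At 24 h 54 passed, and 12 to 71. For the mean effect 0 passed, 21 in DESeq2, 16 with no filter and 0 to 2 with a library left out. Leaving out the 12 h libraries (added after seeing the data) left 0 members and 0 entries passing for the mean effect. Where a left-out library leaves 1 in its group, that library is assumed to vary like the other groups. The cause of these moves was not tested. The labels do not say that A and B pair libraries across groups, and the A-minus-B deviations correlated between groups by -0.17 to 0.11. The replicate block ended the call of let-7c-5p at 12 h (adjusted p = 0.0651), of miR-99a-5p at 24 h (0.0626) and of miR-125a-5p in DMSO 12 h against the other DMSO times (0.0595), and the member counts in the other comparisons did not move with it. let-7c-5p rests on 11 to 60 reads per library, which limits its precision.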
